A study of Homo sapiens with 12 samples.

Results

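The genes described here are 10 immediate early genes outside the AP-1 family: EGR1, IER2, IER3, IER5, ZFP36, ZFP36L1, KLF6, KLF10, NR4A1 and BTG2. They were listed by name, with no threshold on a measured value but with earlier results of these data known, and were found by Entrez gene ID among the 23459 gene rows of a table of raw RNA-seq read counts. All 10 had a row and passed the filter on low counts, as did 14775 genes in all. The cells were MCF10A, a non-tumorigenic human mammary epithelial line, and in every group they carried a doxycycline-inducible allele of YAP5SA, a form of the coactivator YAP that the Hippo kinases cannot inhibit. A vector for JUN overexpression, or the same kind of vector left empty, had been introduced by infection, and the cells received either 100 ng/ml of doxycycline (Dox) or ethanol (EtOH), in which Dox is dissolved. The 4 groups, of 3 libraries each, are named vector EtOH and vector Dox for the empty vector and JUN EtOH and JUN Dox for the JUN vector, and the question was how JUN affects genes that respond to YAP. No group received Dox without the YAP5SA allele, so an effect of Dox itself and an effect of YAP5SA cannot be told apart.

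Immediate early genes are switched on within minutes of a growth factor or stress signal, with no need for new protein, mostly through serum response factor (SRF) and its ELK partners at CArG boxes and through CREB at cyclic AMP response elements. Several of the 10 encode DNA-binding proteins, and others encode proteins that bind mRNA or recruit deadenylases and so shorten the life of other transcripts. The culture medium held horse serum, EGF, insulin, hydrocortisone and cholera toxin. The levels here are thus those of cells in growth medium and not of cells released from starvation. By the study's methods Dox was given for hours before analysis, so the changes on induction are not responses within minutes.

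Total counts ranged from 18594867 to 28993487 per library. Levels are given as CPM, that is, counts scaled to a common library size with TMM factors. JUN itself was at 35.5 to 55.0 CPM in vector EtOH and 186 to 194 in vector Dox, and the JUN vector brought it to 1064 to 1399 (EtOH) and 1146 to 1325 (Dox). YAP1 reads, to which the YAP5SA transcript may add, were at 179 ± 10.5 CPM in vector EtOH and 237 ± 31.5 in vector Dox (SD, n = 3), a difference that was not called (adjusted p = 0.0819). Of 8 mammary epithelial markers, 7 were at 10 CPM or more in every library, while 3 of 4 leukocyte markers were at 3 counts or fewer in every library. The other leukocyte marker, CD68, was at 17.0 to 93.3 CPM and rose with JUN (log2 1.55 in EtOH, 1.78 in Dox). So did the fibroblast marker DCN, at 2.93 to 22.4 CPM (1.56 and 1.95), the only 1 of 3 fibroblast markers tested that was called with JUN. The endothelial marker PECAM1, at 0 to 48 counts, was lower with JUN in EtOH (log2 -1.88) and not called with JUN in Dox. On induction PECAM1 fell in vector cells (-4.79) and in JUN cells (-2.41), and so did CD68 (-0.67 and -0.44). Of the 3 fibroblast markers tested, induction lowered 3 in vector cells and 2 in JUN cells, and raised 0 in either. Of all genes, 14.4% and 10.3% were called lower in these comparisons. The epithelial markers summed to 7512 to 7789.8 CPM in vector EtOH, above vector Dox (4484 to 5410.4), JUN EtOH (5745 to 7387) and JUN Dox (3605 to 5737). Single epithelial markers went both ways with JUN in EtOH, KRT14 (log2 1.20) and TP63 (0.94) being higher and EPCAM (-1.76) and KRT18 (-0.90) lower. With JUN in Dox 7 of the 8 were called, 4 higher and 3 lower, against 35.6% of all genes. Induction lowered 4 of the 8 and raised 0 in both vector and JUN cells (14.4% and 10.3% of all genes called lower). The part of these markers in the results was not tested. The trend of a library with the GC content of transcripts was most negative in JUN Dox replicate 1 (correlation over genes -0.366) and most positive in JUN Dox replicate 3 (0.369). A fit with a term for this trend is given where it changed a call.

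Set per kilobase of transcript in vector EtOH, IER3 was the most abundant of the 10 genes at 141 ± 2.12 CPM per kb, followed by ZFP36L1 at 56.7 ± 7.58. IER2, IER5 and EGR1 lay between 38.7 and 43.8 CPM per kb. ZFP36, KLF6, KLF10 and BTG2 lay between 12.4 and 24.6, and NR4A1 was the lowest at 1.57 ± 0.487 (SD, n = 3). NR4A1 thus rested on few reads, 12 to 139 per library.

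**Figure D1:**
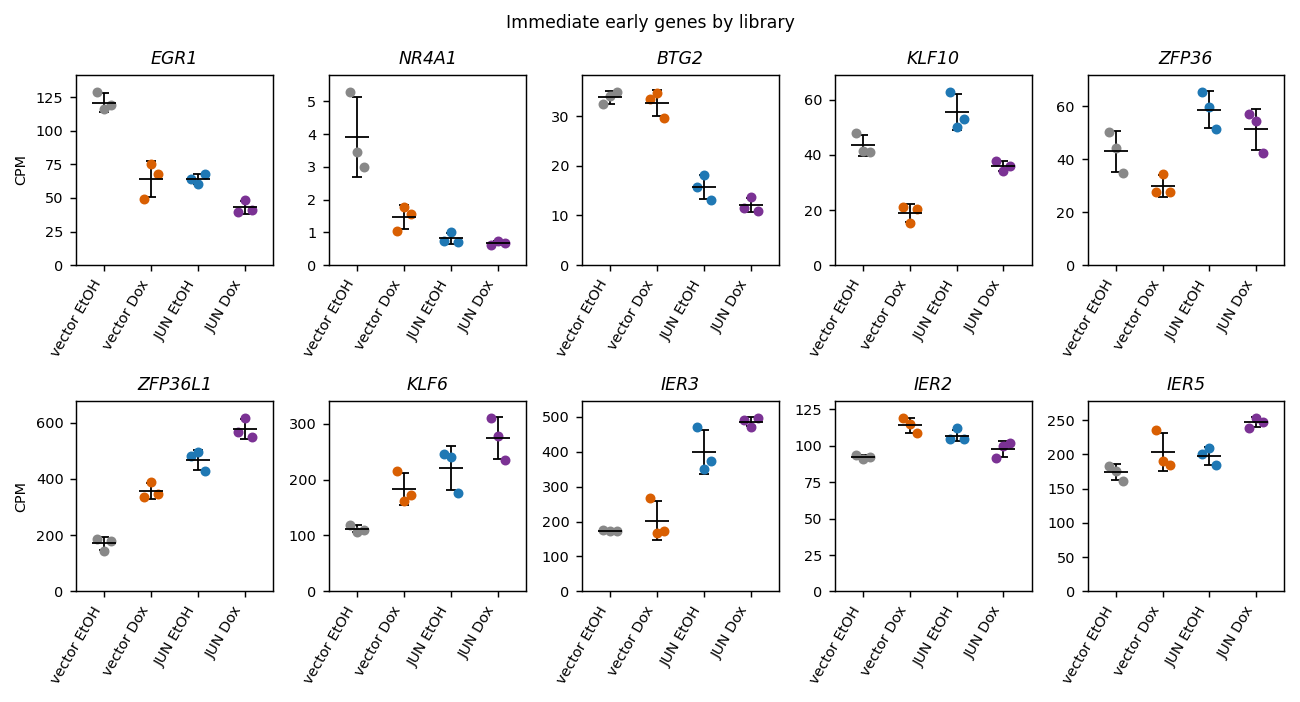
CPM of each of the 10 genes in the 12 libraries on linear axes that start at 0, where each point is 1 library, the long bar the mean and the error bar the SD (n = 3). EGR1, NR4A1 and BTG2 are lowest in JUN Dox, while ZFP36L1, KLF6, IER3 and IER5 are highest there.

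YAP5SA induction in vector cells changed 7 of the 10 genes at an adjusted p under 0.05, against 30.1% of all genes tested (15.6% higher and 14.4% lower). KLF6, ZFP36L1 and IER2 rose, and EGR1, KLF10, NR4A1 and ZFP36 fell. JUN overexpression without induction changed 8 of the 10, against 39.0% of all genes (20.1% higher and 18.9% lower). KLF6, KLF10, ZFP36, ZFP36L1 and IER3 rose, and EGR1, NR4A1 and BTG2 fell. In JUN cells, induction changed 4 of the 10, against 21.4% of all genes (11.2% higher and 10.3% lower), with IER5 higher and EGR1, KLF10 and BTG2 lower. With induction in both arms, JUN changed 9 of the 10, against 35.6% of all genes (18.4% higher and 17.2% lower), and only IER5 was not called. The 8 genes called for JUN without induction had the same direction with it. These comparisons share samples, since each group enters 2 of them, so their calls are not independent. In bulk RNA, fewer cells that express a gene and less of its RNA per cell cannot be told apart. The median log2 fold change of the 10 genes was 0.08 (vector cells) and -0.17 (JUN cells) for induction, and 0.28 (EtOH) and 0.43 (Dox) for JUN. The medians of all genes tested lay between 0.001 and 0.007 on the same scale.

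**Figure D2:**
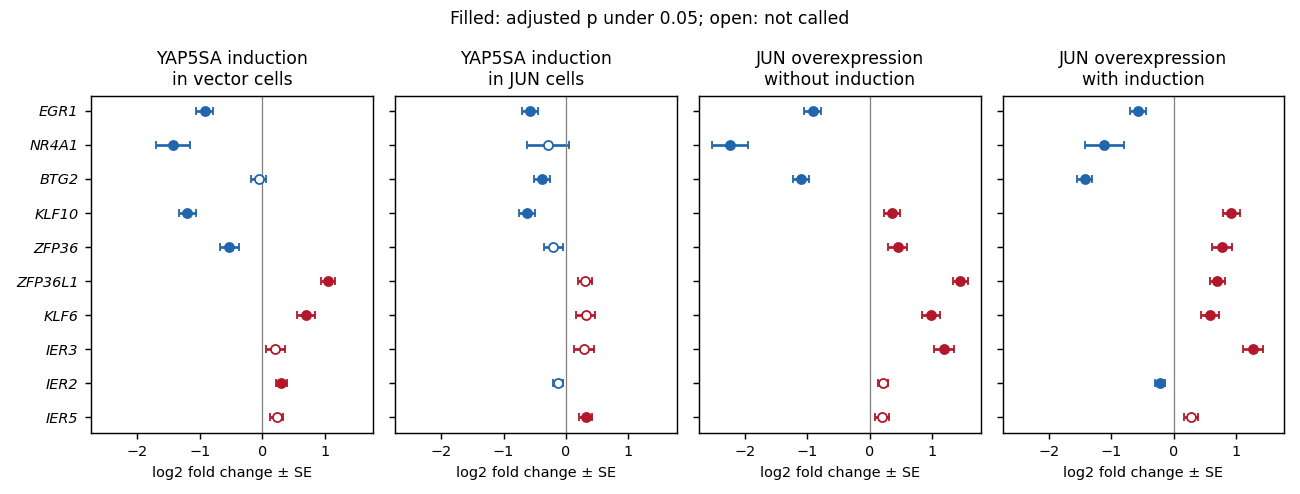
Log2 fold change of the 10 genes (horizontal axis, error bars SE) in the 4 pairwise comparisons, with filled points for an adjusted p under 0.05 and open points for genes not called. EGR1 and KLF10 are filled in all 4 panels, and KLF10 and ZFP36 lie left of 0 for induction and right of 0 for JUN.

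EGR1 encodes a zinc finger transcription factor and is a classical target of SRF. Its gene (Entrez 1958) lies at chr5:137801168-137804992 on the plus strand of GRCh37 and has 2 exons. The promoter windows searched were those of RefSeq on GRCh38.p14, from 250 bases before to 50 after the start, and 10 such windows matched 8 of the 10 genes (all but IER3 and KLF10). The EGR1 window, shown because it alone of the 10 held a CArG box, lies at chr5:138465229-138465528 on the plus strand, and its capitals mark the CArG boxes that begin at -105 and -83 from the start. CArG boxes, searched on both strands, stood in 1.29% of all 35116 windows.
EGR1: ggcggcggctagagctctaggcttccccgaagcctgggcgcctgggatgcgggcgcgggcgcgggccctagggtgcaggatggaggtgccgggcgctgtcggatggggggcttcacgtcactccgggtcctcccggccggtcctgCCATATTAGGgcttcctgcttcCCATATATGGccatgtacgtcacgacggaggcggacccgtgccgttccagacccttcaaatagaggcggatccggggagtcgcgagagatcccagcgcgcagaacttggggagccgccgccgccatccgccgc

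EGR1 was highest in vector EtOH cells and fell with either manipulation. Vector EtOH libraries were at 129, 116 and 119 CPM and vector Dox libraries at 49.3, 75.0 and 68.1. JUN EtOH libraries were at 64.3, 60.7 and 68.1 CPM and JUN Dox libraries at 39.4, 48.7 and 41.4. All vector EtOH libraries lay above all others, vector Dox and JUN EtOH overlapped, and all JUN Dox libraries lay below them. Induction in vector cells lowered EGR1 to 0.529 of its level (log2 -0.92, SE 0.134, adjusted p = 0.000112, edgeR quasi-likelihood test with Benjamini-Hochberg adjustment, used for every adjusted p here). JUN without induction lowered it to 0.530 (log2 -0.92, SE 0.134, adjusted p = 0.000109). Induction in JUN cells lowered it further, to 0.671 of the JUN EtOH level (adjusted p = 0.00679), and JUN in induced cells to 0.673 (adjusted p = 0.00452).

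NR4A1, an orphan nuclear receptor (Entrez 3164, chr12:52416616-52453291, plus strand, GRCh37, 7 exons), had the widest range of the 10, 5.83-fold between its highest and lowest group means. It was at 5.29, 3.44 and 3.01 CPM in vector EtOH and 1.05, 1.76 and 1.57 in vector Dox. With the JUN vector it was at 0.748, 1.01 and 0.704 in EtOH and 0.602, 0.735 and 0.675 in Dox. The vector EtOH libraries stood above the vector Dox libraries and these above the JUN groups, which overlapped each other. Induction in vector cells lowered NR4A1 to 0.372 of its level (log2 -1.43, SE 0.269, adjusted p = 0.000973) and JUN without induction to 0.211 (log2 -2.25, SE 0.289, adjusted p = 3.55e-05). With induction, JUN lowered it to 0.464 (adjusted p = 0.0142). In JUN cells the log2 change on induction was -0.29 and was not called, with a 95% interval of -1.02 to 0.44. An antisense RNA gene, NR4A1AS, overlaps NR4A1, and since the use of strand in counting is not stated, their reads cannot be told apart.

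BTG2, an antiproliferative protein that recruits the CCR4-NOT deadenylase (Entrez 7832, chr1:203274619-203278730, plus strand, GRCh37, 2 exons), differed with JUN. It was at 32.4, 34.1 and 34.9 CPM in vector EtOH and 33.5, 34.6 and 29.6 in vector Dox. In cells with the JUN vector, the values were 15.8, 18.1 and 13.2 in EtOH and 11.6, 13.7 and 11.0 in Dox. All 6 JUN libraries lay below all 6 vector libraries, and the EtOH and Dox libraries overlapped within each vector. JUN lowered BTG2 to 0.465 of its level without induction (log2 -1.10, SE 0.125, adjusted p = 9.94e-06) and to 0.372 with it (log2 -1.43, SE 0.127, adjusted p = 9.12e-07). Induction in vector cells gave a log2 change of -0.05 (95% interval -0.31 to 0.20, adjusted p = 0.775). In JUN cells it gave -0.38 with an adjusted p of 0.0485, and this call was lost in 9 of the 12 leave-one-library-out fits (adjusted p 0.0506 to 0.233), all but those without JUN EtOH replicate 3, vector Dox replicate 1 or JUN Dox replicate 2. The call was also lost without a filter on low counts and in a fit to the compared groups alone.

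KLF10, a zinc finger repressor first known as a TGF-beta-inducible early gene (Entrez 7071, chromosome 8, minus strand, 4 exons), fell on induction and rose with JUN. It was at 47.9, 41.6 and 40.9 CPM in vector EtOH and 21.2, 15.2 and 20.4 in vector Dox. JUN cells were at 62.9, 50.3 and 53.2 without Dox and at 37.8, 34.1 and 36.0 with it. No pair of groups overlapped, and the order was JUN EtOH, vector EtOH, JUN Dox, vector Dox. Induction lowered KLF10 to 0.436 of its level in vector cells (log2 -1.20, SE 0.131, adjusted p = 7.84e-06) and to 0.648 in JUN cells (log2 -0.63, SE 0.128, adjusted p = 0.00282). JUN raised it 1.90-fold in induced cells (log2 0.93, SE 0.131, adjusted p = 8.00e-05). Without induction JUN raised it 1.28-fold (adjusted p = 0.0400), a call lost when 1 library was left out, namely JUN EtOH replicate 1 (0.190), vector EtOH replicate 2 (0.118), vector EtOH replicate 3 (0.126), JUN EtOH replicate 3 (0.0568) or JUN Dox replicate 2 (0.0531).

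ZFP36, also called tristetraprolin, binds AU-rich elements in mRNA and directs the transcripts to decay (Entrez 7538, chr19:39897487-39900052, plus strand, GRCh37, 2 exons). Its libraries read 50.1, 44.1 and 34.6 CPM in vector EtOH and 27.6, 34.5 and 27.6 in vector Dox. The JUN vector cells read 65.4, 59.5 and 51.3 in EtOH and 56.9, 54.4 and 42.3 in Dox. Vector Dox lay below the other groups, which overlapped between neighbours in the order. JUN in induced cells raised ZFP36 1.71-fold (log2 0.78, SE 0.154, adjusted p = 0.00136). Induction in vector cells gave a log2 change of -0.53 (adjusted p = 0.0181), which was not called without vector EtOH replicate 1 (adjusted p = 0.0966) or vector Dox replicate 3 (0.0725). JUN without induction gave 0.45 (adjusted p = 0.0294), which was not called without JUN EtOH replicate 1 (0.125), JUN EtOH replicate 2 (0.0752), vector EtOH replicate 2 (0.0626) or vector EtOH replicate 3 (0.134). In JUN cells induction gave -0.20 (95% interval -0.52 to 0.12) and was not called.

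ZFP36L1, a relative of ZFP36 with the same kind of zinc fingers, moved the other way on induction. The gene (Entrez 677) lies at chr14:69254377-69262970 on the minus strand of GRCh37 and has 2 exons. One of its windows, chr14:68793367-68793666 on the minus strand of GRCh38.p14, is shown because it held a TEAD motif and a cyclic AMP response element side by side. The capitals mark GGAATG, which begins at -60 from the start, and TGACGTCA, which begins at -52. On both strands GGAATG stood in 14.0% of all windows and TGACGTCA in 1.85%, and among the 10 windows GGAATG was otherwise found in that of ZFP36 alone. The AP-1 motif TGANTCA was in 0 of the 10 windows and in 7.71% of all windows. Each window spans only 300 bases, and sequence outside it, enhancers included, was not searched.
ZFP36L1: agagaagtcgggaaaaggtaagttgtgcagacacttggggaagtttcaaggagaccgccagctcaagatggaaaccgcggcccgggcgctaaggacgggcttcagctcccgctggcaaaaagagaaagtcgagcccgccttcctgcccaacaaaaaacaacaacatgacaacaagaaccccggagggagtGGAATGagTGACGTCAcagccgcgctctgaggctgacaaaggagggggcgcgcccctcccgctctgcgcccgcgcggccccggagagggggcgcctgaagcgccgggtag

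The 3 libraries of ZFP36L1 were at 188, 145 and 180.5 CPM in vector EtOH and 334, 388 and 345 in vector Dox. With the JUN vector it was at 480.3, 494 and 429 in EtOH and 567, 616 and 549.5 in Dox. The 4 groups rose from vector EtOH to JUN Dox with no overlap. Induction in vector cells raised it 2.08-fold (log2 1.06, SE 0.119, adjusted p = 9.93e-06) and JUN without induction 2.73-fold (log2 1.45, SE 0.120, adjusted p = 4.38e-07). JUN in induced cells raised it 1.62-fold (adjusted p = 0.000355). In JUN cells the log2 change on induction was 0.31 (95% interval 0.06 to 0.56) and was not called after adjustment (adjusted p = 0.0792), but was called by DESeq2 (0.0485) and with the GC term (0.0426). ZFP36L1 was the only one of the 10 in the study's list of top YAP-induced genes, which came from a separate experiment. The study's clustering of that list placed ZFP36L1 in cluster 3, which the paper describes as mostly known AP-1-induced targets. That clustering used RNA-seq of the same 4 conditions, so it is not independent of the values here. An annotated RNA gene on the same strand overlaps ZFP36L1, so its reads are in part uncertain.

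KLF6, a zinc finger transcription factor (Entrez 1316, chr10:3818188-3827473, minus strand, GRCh37, 4 exons), was at 119, 107 and 109.7 CPM in vector EtOH and 215, 161 and 173 in vector Dox. In cells with the JUN vector, the values were 245, 241 and 176 in EtOH and 309.8, 278 and 235 in Dox. Vector EtOH lay below every other library, and the other 3 groups overlapped between neighbours in the order. KLF6 rose 1.63-fold on induction in vector cells (log2 0.71, SE 0.147, adjusted p = 0.00208), 1.97-fold with JUN (log2 0.98, SE 0.147, adjusted p = 0.000138) and with JUN in induced cells (log2 0.59, SE 0.146, adjusted p = 0.00633). In JUN cells induction gave a log2 change of 0.31 (95% interval 0.002 to 0.62, adjusted p = 0.149).

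IER3, a short-lived protein linked to cell survival signalling (Entrez 8870, chr6:30710976-30712325, minus strand, GRCh37, 2 exons), rose with JUN, while no change on induction was called. It was at 177, 173 and 172 CPM in vector EtOH and 267, 167 and 172 in vector Dox. JUN cells were at 470.2, 351 and 374 without Dox and at 491, 472 and 496 with it. All JUN libraries lay above all vector libraries. JUN raised IER3 2.29-fold without induction (log2 1.19, SE 0.161, adjusted p = 5.44e-05) and 2.41-fold with it (log2 1.27, SE 0.161, adjusted p = 2.86e-05). The log2 change on induction in vector cells, 0.21 (95% interval -0.13 to 0.55), became -0.05 without vector Dox replicate 1, the library at 267 CPM. In JUN cells all Dox libraries lay above all EtOH libraries, but the log2 change of 0.29 (95% interval -0.05 to 0.63) was not called (adjusted p = 0.227). The antisense genes IER3-AS1 and HCG20 overlap IER3, and without strand their reads cannot be told apart from its own.

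IER2 and IER5, related nuclear proteins of which IER5 is known to promote activity of the heat shock factor HSF1, moved least. IER2 (Entrez 9592, chr19:13261225-13265725, plus strand, GRCh37, 2 exons) was at 93.4, 91.2 and 92.5 CPM in vector EtOH and 119, 115 and 109 in vector Dox. The JUN vector cells read 105, 112 and 105 in EtOH and 91.4, 100.1 and 102 in Dox. Induction raised it 1.24-fold in vector cells (log2 0.31, SE 0.083, adjusted p = 0.0116), with all vector Dox libraries above all vector EtOH libraries. JUN in induced cells lowered it (log2 -0.22, adjusted p = 0.0484), a call lost in 11 of the 12 leave-one-library-out fits (adjusted p 0.0566 to 0.152), all but that without JUN Dox replicate 3. The call was also lost without a filter on low counts, at a minimum mean of 5 CPM, in a fit to the compared groups alone and with replicate number as a block. JUN without induction gave 0.22 (adjusted p = 0.0520), which was called without vector Dox replicate 1 (0.0310) or JUN Dox replicate 1 (0.0472). It was also called by DESeq2 (adjusted p = 0.0197), with the GC term (0.0207), at a minimum mean of 5 CPM (0.0254) and in a fit to the compared groups alone (0.0251). Annotated antisense RNA genes overlap IER2 too, so its counts carry the same uncertainty.

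IER5 (Entrez 51278, chr1:181057836-181062036, plus strand, GRCh37, 1 exon) was at 183, 176 and 161 CPM in vector EtOH and 235, 190.3 and 185 in vector Dox. With the JUN vector it was at 200.2, 210.1 and 185 in EtOH and 239, 253 and 248 in Dox. The JUN Dox libraries were the highest and the vector EtOH libraries the lowest, and vector Dox and JUN EtOH overlapped. Induction in JUN cells gave a log2 change of 0.32 (SE 0.107, adjusted p = 0.0477), which held in 1 of the 12 leave-one-library-out fits, that without vector Dox replicate 1, and was lost in the other 11 (adjusted p 0.0504 to 0.159). The call was also lost with other scaling factors (RLE or upper-quartile), without a filter on low counts and at a minimum mean of 5 CPM. JUN in induced cells gave 0.28 (adjusted p = 0.0530) and was called without vector Dox replicate 1 (adjusted p = 0.00487). It was also called by DESeq2 (adjusted p = 0.0278), with the GC term (0.0351) and at a minimum mean of 5 CPM (0.0370).

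The interaction asks whether induction differed between JUN and vector cells, and its value is the log2 change on induction with JUN less the one without. It was called for 1 of the 10 genes, ZFP36L1, against 1.12% of all genes (0.291% higher and 0.826% lower). The ZFP36L1 value was -0.75 (SE 0.166, adjusted p = 0.0408), so that a log2 induction of 1.06 in vector cells stood against 0.31 in JUN cells. This call was lost in 10 of the 12 leave-one-library-out fits (adjusted p 0.0526 to 0.130), all but those without vector Dox replicate 1 (0.0235) or JUN EtOH replicate 3 (0.0483). KLF10 (0.57, 95% interval 0.19 to 0.96, adjusted p = 0.204), NR4A1 (1.14, interval 0.21 to 2.07, adjusted p = 0.364) and IER2 (-0.44, interval -0.69 to -0.19, adjusted p = 0.109) were not called. IER2 was called by DESeq2 (adjusted p = 0.00580) and with a term for the GC trend (0.0343). For EGR1 the interaction was 0.34 with an interval of -0.06 to 0.75.

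**Figure D3:**
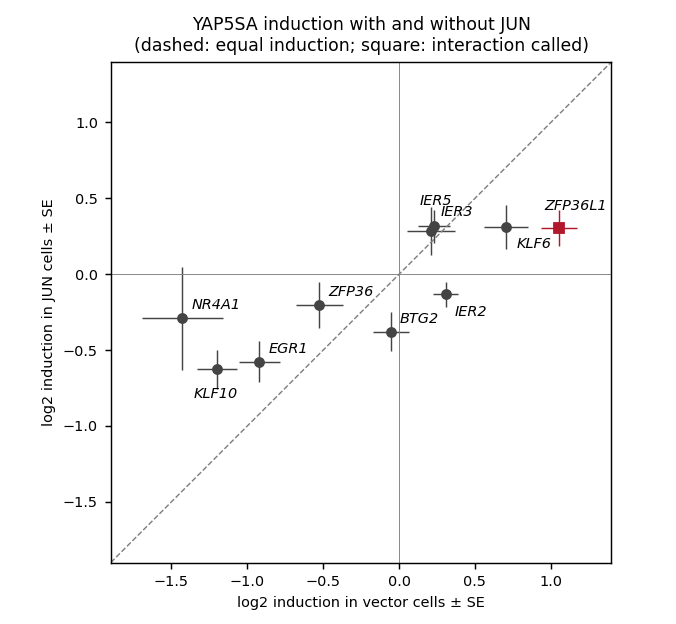
Log2 fold change on YAP5SA induction in vector cells (horizontal) against JUN cells (vertical), with SE bars, for the 10 genes, and a dashed line of equal induction. The square is ZFP36L1, the gene whose interaction was called, at 1.06 against 0.31.

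Between replicates the 10 genes had a median residual SD of 0.179 on the log2 scale. The median over all genes tested, which were not matched to the 10 for level, was 0.183. IER2 varied least (0.061) and NR4A1, the gene with the fewest reads, most (0.312). In vector EtOH replicate 1, 9 of the 10 genes were above their group mean, and in JUN EtOH replicate 3, 1 of 10 was.

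Of 34 other immediate and delayed early genes, 29 passed the filter. EGR2, EGR3, EGR4, NR4A3 and ARC did not, with 0 to 10 counts per library. Induction in vector cells changed 23 of the 29 (30.1% of all genes), with 11 higher and 12 lower and a median log2 change of -0.20. The highest were the matricellular gene CCN1 (log2 4.79) and the kinase PLK2 (4.07), and the lowest were the Notch target HES1 (-2.85) and KLF9 (-1.77). JUN without induction changed 22 (39.0% of all genes), with 14 higher and 8 lower and a median of 0.33, led by NFKBIZ (3.16) and SNAI2 (2.74), with IER5L (-2.15) and NR4A2 (-1.26) the lowest. Induction in JUN cells changed 19 (21.4% of all genes), with 8 higher and 11 lower, and JUN in induced cells changed 21 (35.6%), with 13 higher and 8 lower. The interaction was called for 4 (1.12% of all genes), with 1 higher and 3 lower.

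Of 10 regulators of immediate early transcription, induction in vector cells changed 3, a share near the 30.1% of all genes. SRF rose (log2 0.44), while NAB2 (-1.13) and NAB1 (-0.30), corepressors of EGR proteins, fell. JUN without induction changed 7 (39.0% of all genes), with 5 higher and 2 lower. The ETS factor ELK3 rose (1.45), as did NAB1 (0.58), and ELK1 (-0.47) and NAB2 (-0.31) fell. JUN in induced cells changed 6 (35.6% of all genes), with ELK3 (1.71) and NAB1 (0.64) the highest and SRF (-0.39) and ATF1 (-0.36) the lowest. Induction in JUN cells changed 1, NAB2 (-0.81), against 21.4% of all genes.

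Among 8 AP-1 genes, induction in vector cells changed 6 (30.1% of all genes), with 3 higher and 3 lower. FOS (-2.79) and JUNB (-1.35) fell, as EGR1 and NR4A1 did, while JUN (1.99) and FOSL1 (1.44) rose. In JUN cells FOS (-1.95) and JUNB (-1.21) fell again on induction, among 5 AP-1 genes called (21.4% of all genes). JUN overexpression changed 4 of the 8 without induction (39.0% of all genes) and 4 with it (35.6%), and each count includes JUN itself, whose rise the vector fixed. FOSL1 (1.14 and 1.02) was higher and JUND (-0.81 and -1.08) lower in both. Of 8 heat shock genes, which HSF1 drives, induction raised 5 and lowered 1 in vector cells (median log2 0.46, 30.1% of all genes called) and raised 4 in JUN cells (median 0.35, 21.4% called). JUN lowered 4 of the 8 heat shock genes without induction, against 18.9% of all genes called lower, and 3 with it, against 17.2%. It raised 0 of them in either comparison. Their summed level was 4947 to 5342 CPM in vector EtOH and 6338 to 6864 in vector Dox. In JUN cells it was 3583 to 4266 in EtOH and 4618 to 5587 in Dox. HSPA8 alone averaged 2389 CPM in vector EtOH and 1853 in JUN EtOH, so this 1 gene weighs heavily in the sums.

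**Figure D4:**
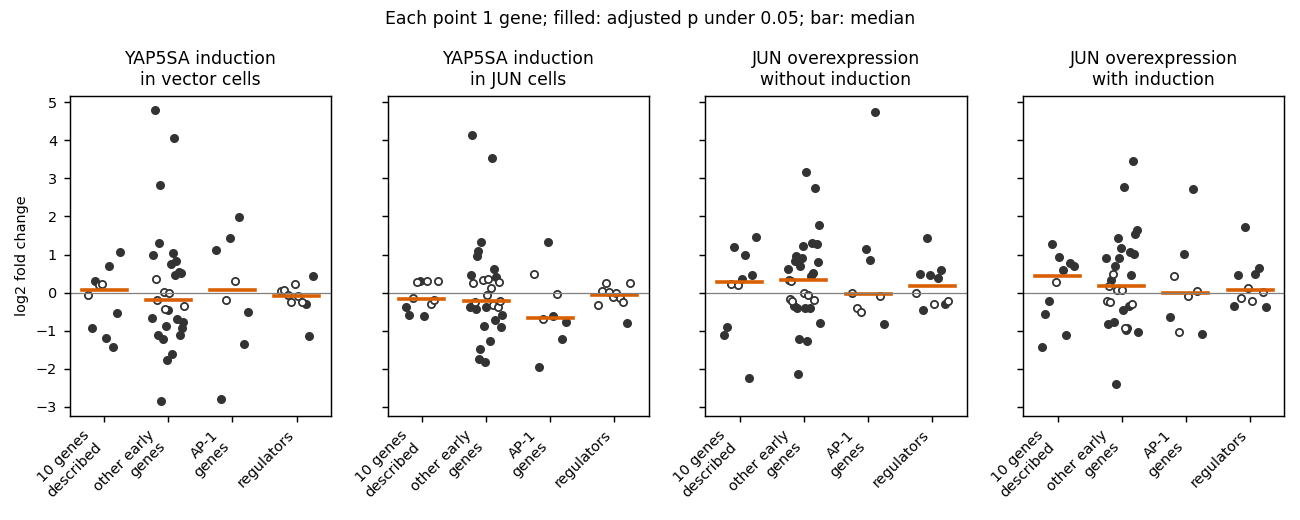
Log2 fold change of each gene of 4 lists (the 10 genes, other early genes, AP-1 genes and regulators) in the 4 pairwise comparisons, filled where called, with a bar at the list's median. The highest early gene on induction in vector cells is CCN1 at 4.79, and the lists hold genes on both sides of 0 in every panel.

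For the 3 genes with the widest range of group means, the genes with the most similar profile were found as the smallest root-mean-square difference of mean-centred log2 CPM over the 12 libraries, among genes of at least 5 CPM on average. Those nearest to ZFP36L1 were ELL2 (0.159), GCNT1 (0.173) and BNC2 (0.178). ELL2 averaged 43.6 CPM in vector EtOH and 79.5 in vector Dox, then 96.4 in JUN EtOH and 133 in JUN Dox. Those nearest to KLF10 were ARHGAP24 (0.168), NFKBIA (0.180) and IL4R (0.183), and NFKBIA, the inhibitor of NF-kappaB, stood at 159.6, 81.8, 207 and 130.2 CPM in the same groups. Those nearest to NR4A1 were less close, ADGRL1 (0.307), its antisense gene ADGRL1-AS1 (0.321), whose reads overlap and are uncertain, and PTPRU (0.326). The spread between replicates enters this distance, and the residual SD was 0.312 for NR4A1, 0.134 for ZFP36L1 and 0.172 for KLF10. The distances of the 3 genes are therefore not on an equal footing.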

How the data were processed

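For each of 12 libraries the authors deposited read counts per gene without normalization. According to the study's methods, poly(A) RNA was sequenced single-end, and reads were trimmed with Cutadapt, aligned to hg19 with Bowtie2 and assigned to genes with countOverlaps. The annotation and the use of strand are not given in the sources used here. Bowtie2 does not split reads across introns, so reads across junctions can be lost, to an extent not measured here. The 3 libraries of a group are biological replicates by the study's methods.

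Symbols came from a RefSeq table (99.4% of IDs). Total counts were 18594867 to 28993487. Genes were filtered with filterByExpr (minimum count 10, total 15), and 1 quasi-likelihood model with TMM scaling and robust dispersion was fitted to all 12 libraries with edgeR 4.0.16 (R 4.3.3). P-values were adjusted over 14775 genes (Benjamini-Hochberg) and called under 0.05. The SE was computed as the log2 change over the root of its F statistic, and 95% intervals use the t distribution and are not adjusted. Log2 CPM had a prior count of 2. Gene positions (1-based, GRCh37) were taken from GENCODE v44lift37. The fitting was tested on simulated data.

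The 10 genes were all named. Of the other lists, at most the 2 highest and 2 lowest called genes per comparison were named, and for 3 of the 10 genes the 3 nearest profiles. The 10 genes and the lists were chosen with earlier results of these data known. Alternatives were DESeq2 1.42.0, RLE or upper-quartile factors, no filter, a filter at a mean of 5 CPM, a fit to the compared groups alone, a replicate block and each library left out. A term for the GC trend of each library was chosen after seeing the data.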

Additional observations from a re-analysis of the deposited data

Results flagged for a closer look

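The effect of YAP5SA induction on ZFP36L1 differed between vector and JUN cells by the test of the difference itself. The interaction was -0.75 on the log2 scale (SE 0.166, adjusted p = 0.0408 by the edgeR quasi-likelihood test with Benjamini-Hochberg adjustment), with the means at 171 and 356 CPM in vector EtOH and vector Dox and at 467 and 578 CPM in JUN EtOH and JUN Dox (n = 3 each). Over 19 alternatives the adjusted p ranged from 0.000456 to 0.130, with the call made in 8 of them. The direction was negative in all 19.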

How the results depend on the processing

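Of 985 values of the 10 genes recomputed under 20 alternatives, 902 kept their direction and their side of the threshold, 63 lost the call, 15 gained it and 5 reversed. EGR1 was called in all 20 in each pairwise comparison. The 5 reversals were of values not called: BTG2 on induction in vector cells (0.0106 without vector Dox replicate 3), IER3 on the same (-0.0469 without vector Dox replicate 1), and the IER3 interaction (-0.0377 without vector Dox replicate 2, -0.0291 without vector Dox replicate 3 and -0.00784 without JUN EtOH replicate 2). With 1 library left out, the genes called among the 10 numbered 6 to 7 for induction in vector cells, 6 to 9 for JUN without induction, 2 to 4 for induction in JUN cells, 8 to 9 for JUN with induction and 0 to 1 for the interaction, and among all genes 3326 to 4865, 3823 to 6765, 2082 to 3861, 4025 to 5539 and 97 to 242. Without a filter on low counts, 2 of the 10 were called for induction in JUN cells. With only the libraries of the comparison, 3439 genes were called for JUN with induction. For the interaction, DESeq2 called 2 of the 10 and 340 genes in all, and the GC term 2 and 292. The cause was not tested. Over the fits that left out 1 library, the log2 change on induction in vector cells ranged from -0.107 to 0.0106 for BTG2 and from -0.0469 to 0.323 for IER3, and the IER3 interaction from -0.0377 to 0.332.

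The pairing of libraries by replicate number was uneven. Deviations of libraries with the same number correlated at -0.258 to 0.466, over 0.1 in 7 of 18 pairs. The lowest value was for vector EtOH and vector Dox of replicate 2, and the highest for JUN EtOH and JUN Dox of replicate 3. Of the 12 libraries, 7 correlated best with their own number. With the replicate number as a block, 4588, 5871, 3256, 5329 and 197 genes were called in the comparisons in the order above. Without it the numbers were 4443, 5766, 3168, 5267 and 165, lower in each. Under this block IER5 gained the call for JUN with induction (adjusted p = 0.0398), IER2 lost it (0.0550), and the interaction was called for 0 of the 10, ZFP36L1 being at 0.0573. NR4A1, at 12 to 139 counts per library, was not tested at a minimum mean of 5 CPM, and its counts limit what could be detected.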
